A study of Mus musculus with 24 samples.

Results

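The 48 genes described here encode the machinery of synaptic vesicle release, and the question was where the neuronal zinc finger factor MYT1L lies on them in mouse cortex. The members were chosen by name, as 48 of 21938 protein-coding genes, and a member was called a target in a list of sites when any base of a site lay no more than 5 kb from one of its annotated transcription starts. Binding was profiled by CUT&RUN, where an antibody tethers a nuclease to chromatin and the DNA it releases is sequenced. The labels give the mice as C57BL/6J, whereas the study's methods say that the mutants were made and bred on C57BL/6N. The groups were wild-type (WT) cortex from embryos at E18.5, WT prefrontal cortex at birth (P0), WT prefrontal cortex at 3 months (adult WT) and prefrontal cortex of 3-month-old Myt1l heterozygotes (adult HET), which carry a germline frameshift in the first coding exon on 1 allele. Each group had 3 MYT1L libraries, merged by the authors into 1 list of sites, and 3 libraries with control IgG.

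The 4 lists give a start and an end for each site and nothing else. They held 14477 sites at E18.5, 40698 at P0, 32145 in WT adults and 56937 in HET adults, with median widths of 593, 276, 167 and 108 bp. Depth is unknown and there is no value per library, so no difference between lists could be tested against replicate error, and every comparison of lists below is a description. The younger stages were sequenced in run 1 and both adult groups in run 2, so that age and run cannot be told apart. Positions are in build mm10, counted from 1. A list of sites holds no expression, so the labelled tissue was not checked against marker genes.

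At a synapse, SNARE proteins of the vesicle (Vamp1, Vamp2) and of the plasma membrane (Snap25, Stx1a) zip together and fuse the membranes, and synaptotagmins and complexins make this step follow a rise in calcium. Munc13 and RIM proteins prime vesicles at the active zone, which the large scaffolds Bassoon, Piccolo and ELKS build. MYT1L is known mainly as a repressor of non-neuronal genes in neurons, and AAAGTT is the core of its motif.

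The stretches below come from sites near or in these genes that were held in at least 2 lists, and are a choice among them. Each is written 5′ to 3′ on the strand of the gene, or for short motif windows on the strand of the match. The first set shows what 3 lists have in common immediately upstream of a start. Capitals mark AAAGTT or TGACGT, the core of the cAMP response element, on either strand.
Snap25 (chr2:136713371-136713452, plus strand; E18.5, P0 and adult WT): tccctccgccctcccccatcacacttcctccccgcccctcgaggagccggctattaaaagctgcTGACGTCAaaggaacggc
Syt1 (chr10:109010983-109011063, minus strand; P0, adult WT and adult HET): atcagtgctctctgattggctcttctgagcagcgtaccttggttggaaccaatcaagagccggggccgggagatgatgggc
Pclo (chr5:14514693-14514849, plus strand; P0, adult WT and adult HET): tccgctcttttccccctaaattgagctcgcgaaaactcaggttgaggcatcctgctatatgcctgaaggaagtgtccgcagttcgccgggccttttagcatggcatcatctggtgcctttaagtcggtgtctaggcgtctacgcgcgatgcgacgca
Rab3a (chr8:70754441-70754678, plus strand; E18.5, adult WT and adult HET): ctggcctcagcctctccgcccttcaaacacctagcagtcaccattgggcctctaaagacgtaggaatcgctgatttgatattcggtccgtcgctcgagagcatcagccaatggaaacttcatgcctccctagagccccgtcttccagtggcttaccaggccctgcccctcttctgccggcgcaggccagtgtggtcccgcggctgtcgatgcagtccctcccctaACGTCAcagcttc
None of these 4 stretches holds AAAGTT, whereas TGACGT is present in Snap25 and in Rab3a, close to the end of each stretch, where transcription starts. In the 75 bp to each side of a site's midpoint TGACGT lay in 2 of the 19 member sites near a start at E18.5 (10.5%, exact 95% interval 1.3 to 33.1%), 3 of 57 at P0 (5.26%), 1 of 24 in adult WT (4.17%) and none of 20 in adult HET, against 5.54%, 4.85%, 3.99% and 2.49% of all sites near a start. The CpG count is 6 in the 82 bases of Snap25, 3 in the 81 of Syt1, 13 in the 157 of Pclo and 14 in the 238 of Rab3a.

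The second set shows sites near a start that do hold AAAGTT, in capitals on either strand, and the last line is the stretch of Sv2b that lay inside a site of every list.
Stxbp5 (chr10:9902205-9902296, minus strand, 1126 to 1217 bp upstream of the start): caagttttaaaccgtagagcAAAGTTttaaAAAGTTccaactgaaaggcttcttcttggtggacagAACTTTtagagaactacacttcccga
Rab3c (chr13:110280534-110280579, plus strand, the strand opposite to the gene): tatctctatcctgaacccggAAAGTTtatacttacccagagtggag
Sv2b (chr7:75220889-75220934, minus strand, 870 to 915 bp upstream of a start): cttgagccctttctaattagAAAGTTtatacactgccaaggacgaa
Vamp2 (chr11:69086667-69086712, minus strand, the strand opposite to the gene): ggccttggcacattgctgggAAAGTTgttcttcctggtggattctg
Sv2b intron (chr7:75209396-75209462, minus strand): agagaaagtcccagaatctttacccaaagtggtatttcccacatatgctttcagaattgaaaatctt
In Stxbp5 the word occurs 3 times within 52 bp, and all 3 copies lay inside sites of E18.5, P0 and adult WT. The Rab3c and Sv2b matches were each inside sites of E18.5 and P0, and the Vamp2 match was inside sites of both adult lists.

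Of the 48 release genes, 15 were targets at E18.5 (31.2%), where 30.0% of all protein-coding genes were. At P0 the members counted 29 (60.4%) against 45.9% of all genes, in adult WT 19 (39.6%) against 20.1%, and in adult HET 15 (31.2%) against 23.4%. Thus the share of members was near that of all genes at E18.5 and stood above it in the other lists. The difference was 14.5 percentage points at P0 and 19.5 in adult WT. Split by gene length, this order did not hold in every class. For genes under 20, of 20 to 100 and over 100 kb, members had 58.3%, 47.4% and 76.5% at P0. All genes of those lengths had 36.8%, 54.9% and 61.6%. In adult WT the shares were 33.3%, 31.6% and 52.9%, against 17.4%, 21.4% and 28.4%. In adult HET they were 41.7%, 21.1% and 35.3%, against 21.6%, 24.2% and 29.6%. At E18.5 they were 41.7%, 31.6% and 23.5%, against 25.5%, 35.5% and 34.4%. In all 4 lists 4 members were targets (8.33%, against 4.75% of all genes): Snap25, Stxbp5, Syt4 and Unc13b. In none were 12 members (25.0%, against 39.2%). The 82 other genes of the vesicle cycle and the synapse listed beside them, such as those for endocytosis and for presynaptic assembly, had 26 targets at E18.5 (31.7%), 37 at P0 (45.1%), 18 in WT adults (22.0%) and 20 in HET adults (24.4%), all within 2 percentage points of all genes.

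**Figure D1:**
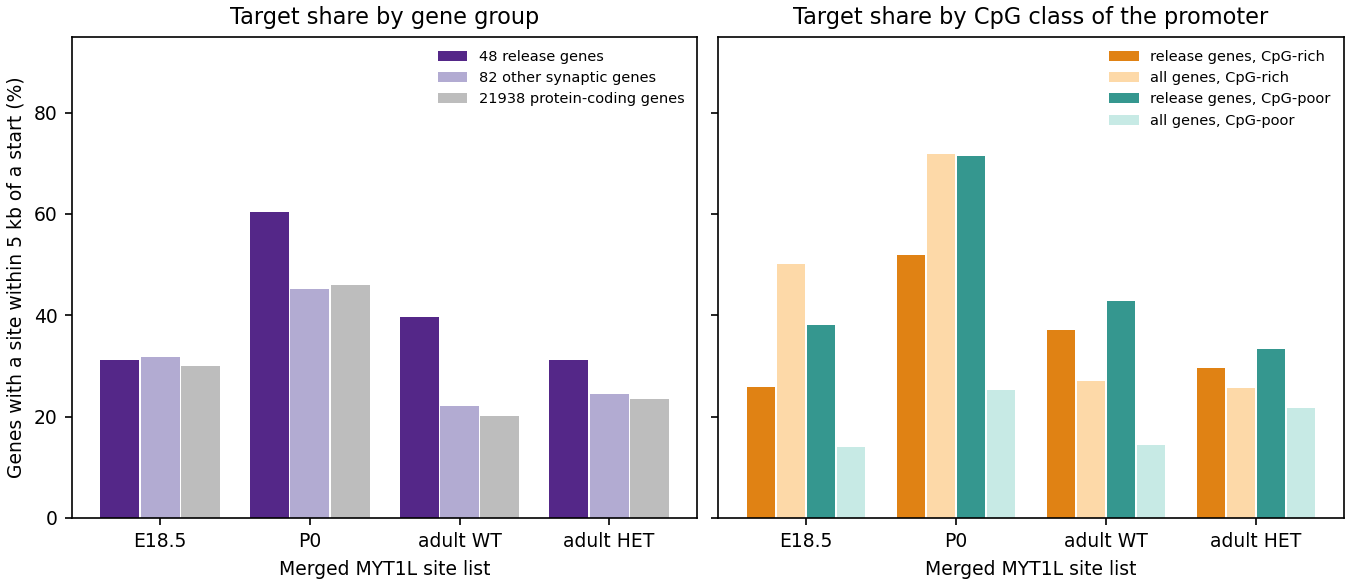
Left: percentage of genes with a site no more than 5 kb from a start in each merged list, for the 48 release genes, 82 other synaptic genes and 21938 protein-coding genes. Right: the same percentage by CpG class of the promoter, for release genes and all genes. The bars of the release genes stand at 31.2%, 60.4%, 39.6% and 31.2%, and in the CpG-poor class above those of all genes in every list. Bars are shares of a fixed gene set and carry no error.

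The lists differed in which members they held. All but 1 of the 15 E18.5 targets were targets at P0 as well, the exception being Rab3a (93.3% kept, against 93.5% of all E18.5 targets). A further 15 members were P0 targets without being E18.5 targets. E18.5 targets made up 48.3% of the members' P0 targets, against 61.1% over all genes. Of the 29 P0 targets, 13 were targets in adult WT (44.8%, against 30.7% of all P0 targets). Another 6 members were adult WT targets without having been P0 targets, namely Rab3a, Syt12, Rph3a, Doc2a, Bsn and Unc13c. P0 targets made up 68.4% of the members' adult WT targets, near the 70.3% over all genes. At P0 alone 8 members were targets (16.7%, against 11.6% of all genes): Snap47, Stx1a, Syt5, Cplx2, Unc13a, Rims2, Syn2 and Sv2c. In adult WT alone there were 4 (8.33%, against 3.58%), Syt12, Rph3a, Doc2a and Bsn, and in adult HET alone there was Syt7 (2.08%, against 7.87%). No member was a target at E18.5 alone, where 0.757% of all genes were.

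**Figure D2:**
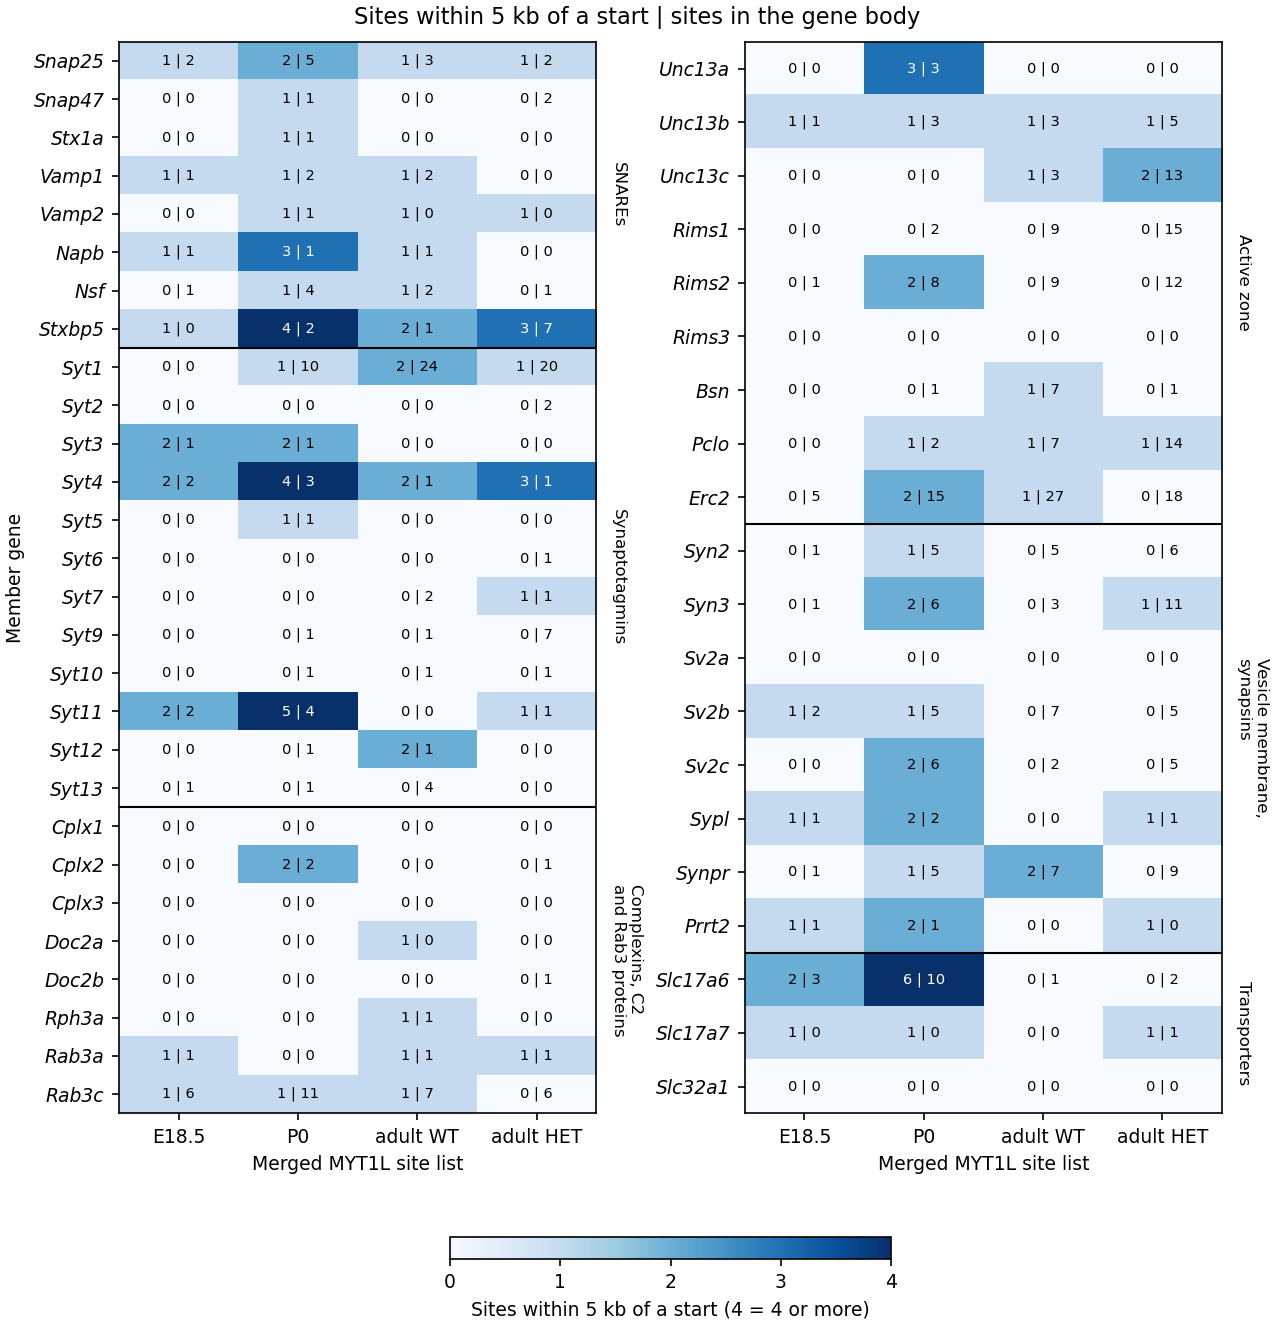
Sites of each of the 48 members in the 4 merged lists, grouped by role. In each cell the number before the bar is the count of sites no more than 5 kb from a start (which also sets the colour) and the number after it is the count in the gene body. Slc17a6 has 6 sites near its start at P0 and none in either adult list, and Cplx1, Cplx3, Rims3, Sv2a and Slc32a1 are at 0 throughout.

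Among the 8 SNARE proteins and their regulators, 4 were targets at E18.5, all 8 at P0, 6 in WT adults and 3 in HET adults. Snap25, the plasma membrane SNARE cleaved by botulinum toxin A, had a site over its start of 481 bp at E18.5, 575 bp at P0 and 115 bp in adult WT. In adult HET it had no site there, and its 216-bp site lay 1051 bp upstream, where no other list had one. Vamp1, a vesicle SNARE, likewise had a site over its start of 746 bp at E18.5, 865 bp at P0 and 372 bp in adult WT, and no site in adult HET. Napb, the β-SNAP that recruits the ATPase NSF to spent SNARE complexes, showed the same order, with 306, 340 and 129 bp over its start and none in adult HET. These 3 genes, and Rab3c described below, were therefore covered at the start in each WT list and not in the HET list. The share of all genes with this pattern at the start was not counted. Over all genes, 22.4% of the pairs of a gene and a nearby site lay over a start in adult WT and 7.11% in adult HET. Targets in each WT list and not in HET, by any site near a start, were 6.25% of members (Vamp1, Napb and Rab3c) and 5.97% of all genes. Snap25 is not in that count because its upstream HET site made it a target in all 4 lists.

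Stxbp5 encodes tomosyn, which holds SNAREs in an unproductive complex and so restrains release. Its upstream site was 871 bp wide at E18.5, 625 bp at P0 and 459 bp in adult WT, and these overlapped each other. The adult HET site in the same stretch, 133 bp, overlapped those of E18.5 and P0 but not that of adult WT. An intronic site 623 bp downstream of a start in adult WT (129 bp) overlapped sites of P0 (273 bp) and adult HET (147 bp). In total Stxbp5 had 871 bp of sites near its starts at E18.5, 1410 at P0, 588 in WT adults and 387 in HET adults, the largest sum of any member in both adult lists.

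Of the remaining members of this group, Stx1a and Snap47 were targets in 1 list, Nsf in 2 and Vamp2 in 3. Stx1a, syntaxin 1A, had a 413-bp site over its start at P0 and none elsewhere. Vamp2, the main vesicle SNARE of forebrain, had a 146-bp site at P0 in its 3′ UTR, and in the adult overlapping sites of 275 bp in WT, 1739 bp upstream of its start, and of 153 bp in HET, 1698 bp upstream. Nsf had sites upstream of its start at P0 (258 bp) and in adult WT (97 bp) that did not overlap. Snap47 had 1 site, of 181 bp, at P0, over its start.

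Of the 12 synaptotagmins, 3 were targets at E18.5, 5 at P0, 3 in WT adults and 4 in HET adults, and 5 were targets in no list. Syt4, a synaptotagmin of dense-core vesicles that binds calcium poorly, was the member with the second largest sum of sites near its start at E18.5 and P0 and again in adult HET. It had 2098 bp in 2 sites at E18.5, 2866 bp in 4 sites at P0, 430 bp in 2 sites in adult WT and 348 bp in 3 sites in adult HET. Upstream of its start, 1112 bp away in the HET list, lay the only region near a member's start where the sites of all 4 lists coincided: the 200-bp HET site was contained in the 291-bp adult WT, the 397-bp P0 and the 1213-bp E18.5 site.

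Syt1, the calcium sensor of fast synchronous release in forebrain, had no site near its start at E18.5. At P0 a 667-bp site covered the start, and in the adult a 246-bp WT site and a 153-bp HET site lay within it. Syt11, which lacks calcium binding, was among the 3 members with the most covered bases early, with 1789 bp at E18.5 and 1816 bp in 5 sites at P0, none in adult WT, and a 115-bp site in adult HET that lay 4236 bp downstream of an internal start and 6801 bp from the outermost one. Syt3 had 1226 bp at E18.5 and 558 bp at P0 and no site in the adult. Syt7, the sensor of slow, asynchronous release, had 1 site near a start, an intronic HET site of 153 bp, and Syt12 had adult WT sites of 152 and 203 bp there. Farther inside, Syt7 had adult WT sites of 220 and 84 bp and Syt12 a P0 site of 149 bp.

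The 8 complexins and other C2 or Rab3 proteins had 2 targets at E18.5, 2 at P0, 4 in WT adults and 1 in HET adults. Rab3a, the small GTPase that tethers vesicles to RIM, had a site over its starts of 472 bp at E18.5, 350 bp in WT adults and 285 bp in HET adults, all overlapping, and the nearest P0 site lay 5404 bp downstream. Its paralogue Rab3c had 839 bp at E18.5, 1065 bp at P0 and 287 bp in adult WT over its starts, and no site there in adult HET. Of the complexins, the clamps of the SNARE complex, Cplx2 had 2 intronic sites (157 and 171 bp) at P0, and Cplx1 and Cplx3 had none in any list.

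In the active zone group of 9, 1 gene was a target at E18.5, 5 at P0, 5 in WT adults and 3 in HET adults. The 1 early gene was Unc13b, which encodes the priming factor Munc13-2, with a site over its start of 534 bp at E18.5 and 263 bp at P0. It counted as a target in the adult through other positions: a 436-bp WT site 2094 bp upstream of an internal start, and a 110-bp HET site 4848 bp upstream of the outermost start, close to the 5-kb limit. Unc13a, the major Munc13 of cortex, had 3 sites totalling 1438 bp at P0 and none in the other lists. Unc13c had sites in the adult lists only, 188 bp in WT and 209 bp in HET, at different positions. Pclo, the scaffold Piccolo, had overlapping promoter sites of 488 bp at P0, 309 bp in WT adults and 157 bp in HET adults, whereas its relative Bsn had a single intronic site near its start, of 96 bp in adult WT.

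The 8 vesicle membrane proteins and synapsins counted 3 targets at E18.5, 7 at P0, 1 in WT adults and 3 in HET adults. The 1 adult WT target was Synpr, synaptoporin, with intronic sites of 303 and 278 bp that gave it the second largest sum near starts in that list, and with a separate 237-bp site at P0. Sv2b had a promoter site, at an internal start, of 487 bp at E18.5 and 488 bp at P0, and Sv2c 1065 bp in 2 sites at P0. Sv2a, the protein to which levetiracetam binds, had no site near the start used here or in its body in any list. Syn2 had a 368-bp site at P0. Prrt2, mutated in paroxysmal movement disorder, was a target at E18.5, P0 and in adult HET, but its E18.5 site, the larger of its P0 sites and its HET site were each nearer to the start of another gene (Gm42742 or Maz), and only a 241-bp P0 site lay nearest to Prrt2.

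Vesicular transporters for glutamate were covered early. Slc17a6 (VGLUT2) had the most covered bases of all members at E18.5, 2797 bp in 2 sites, and at P0, 2922 bp in 6 sites. It had none near its start in either adult list. Slc17a7 (VGLUT1), the main glutamate transporter of adult cortex, had 1 upstream site of 678 bp at E18.5 and 820 bp at P0, none in adult WT, and a 112-bp intronic site in adult HET. Slc32a1, the transporter for GABA and glycine, had no site in any list, and the nearest lay 13.9 kb downstream of its start at P0.

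**Figure D3:**
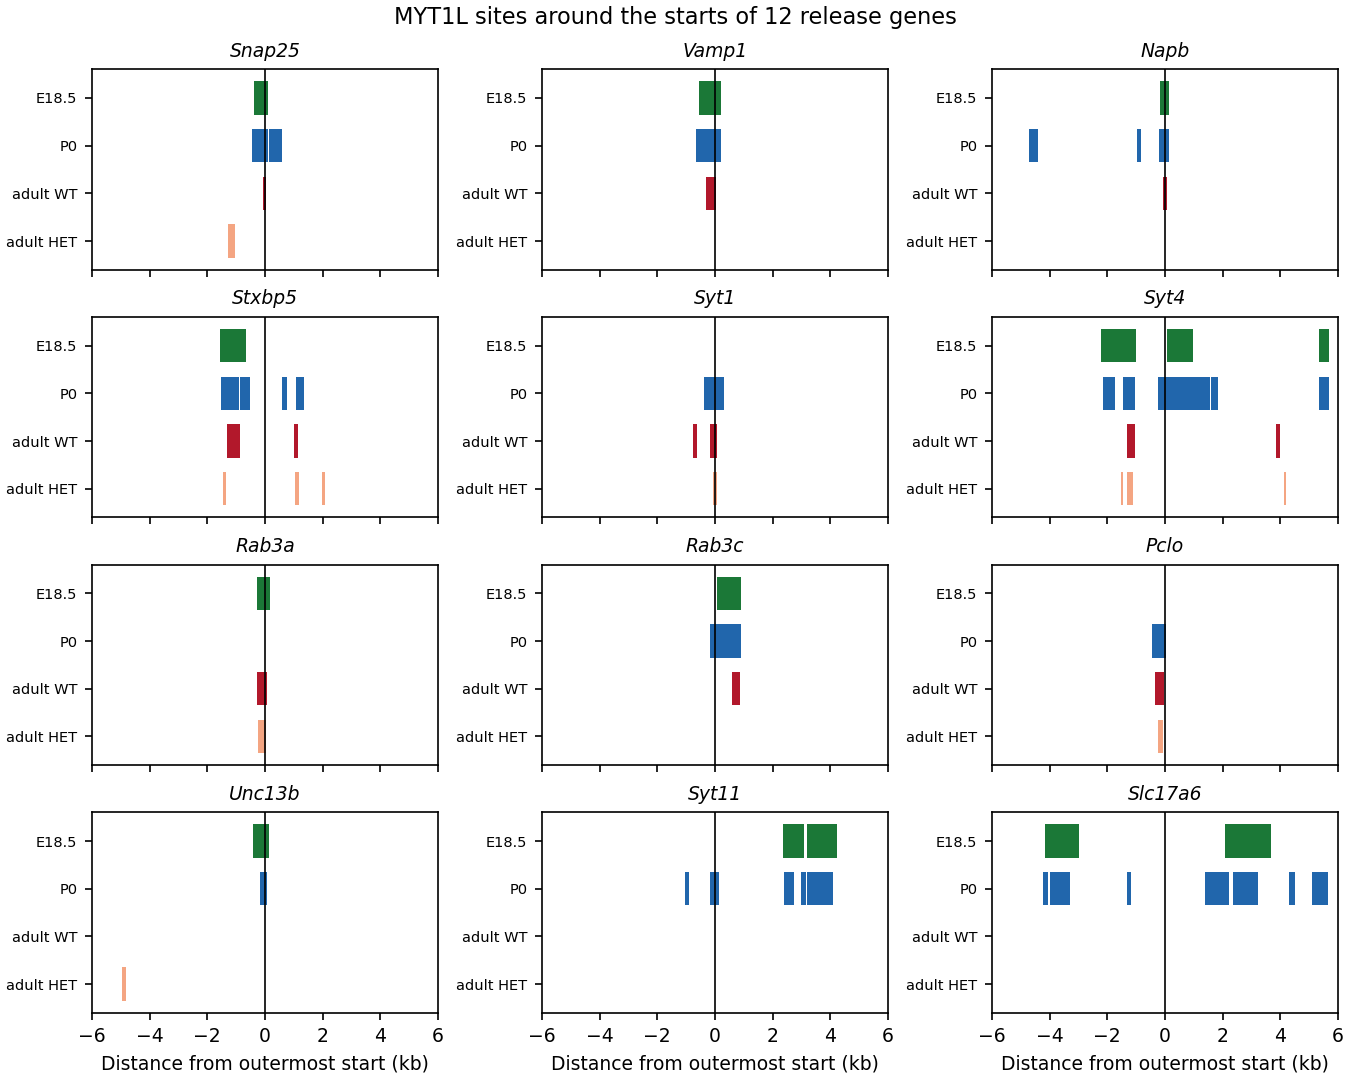
Sites of the 4 merged lists around the outermost start (vertical line, 0) of 12 release genes, with distance in kb along the gene's direction of transcription. Bars are sites drawn to scale. The adult HET row is empty at the starts of Snap25, Vamp1, Napb and Rab3c, and is filled at or just upstream of those of Syt1, Rab3a and Pclo.

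The members that were targets in no list were Cplx1, Cplx3, Doc2b, Rims1, Rims3, Slc32a1, Sv2a, Syt2, Syt6, Syt9, Syt10 and Syt13. Of these, Cplx1, Cplx3, Rims3, Slc32a1 and Sv2a had no site in the gene body either. Syt13 lay just beyond the limit in every WT list, with an intronic site 5.62 kb from its start at E18.5, 5.79 kb at P0 and 5.80 kb in adult WT that overlapped each other, and none nearer than 21.2 kb in adult HET. Rims1 had a HET site 5.06 kb upstream, Rims3 an adult WT site 5.69 kb upstream and Syt9 a HET site 6.13 kb downstream. Syt2 had a site 8.36 kb upstream in each adult list. For Cplx1, Cplx3, Doc2b, Slc32a1 and Syt6 the nearest site of any list was more than 10 kb away. On the inner side of the limit, 2 of the 78 pairs of a member and a list rested on a site more than 4 kb from a start, Unc13b and Syt11 in adult HET.

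Heterozygous and WT adult cortex shared 9 of the 19 WT targets (47.4%, against 38.8% of all adult WT targets), which are 60.0% of the 15 HET targets (33.2% for all genes). Shared genes did not always mean shared sites. Of the 24 adult WT sites near a member's start, 6 overlapped a HET site (25.0%, exact 95% interval 9.77 to 46.7%, counting error only), against 12.7% of all adult WT sites near a start. Those 6 were at Stxbp5, Vamp2, Syt1, Syt4, Rab3a and Pclo. Snap25, Unc13b and Unc13c were targets in both lists through sites that did not overlap. The 10 members that were targets in WT adults and not in HET adults were Vamp1, Napb, Nsf, Syt12, Doc2a, Rph3a, Rab3c, Bsn, Erc2 and Synpr. The 6 with the opposite pattern were Syt7, Syt11, Syn3, Sypl, Prrt2 and Slc17a7. Their HET sites, of 84 to 153 bp, overlapped no site of any other list. Of all HET sites near a start, 16.9% overlapped an E18.5 site, 17.1% a P0 site and 11.0% an adult WT site. A HET site without overlap was thus common over all genes as well.

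HET sites lay farther from starts than those of the other lists. Within 1 kb, the HET list had 4 members, Stxbp5, Syt1, Rab3a and Pclo (8.33%, against 9.01% of all genes), and the adult WT list had 13 (27.1%, against 11.8%). Sites over a start numbered 8 at E18.5, 17 at P0, 6 in WT adults and 2 in HET adults, and those 2 were at Syt1 and Rab3a. They were 42.1%, 29.8%, 25.0% and 10% of the members' sites near a start, and over all genes 63.7%, 37.4%, 22.4% and 7.11% of the pairs of a gene and a nearby site. Among sites near a start, 47.4% lay at promoters at E18.5 (9 of 19), 42.1% at P0 (24 of 57), 37.5% in WT adults (9 of 24) and 15.0% in HET adults (3 of 20), where all genes had 65.6%, 50.2%, 41.4% and 24.7%. The lower HET values are therefore found over all genes as well. The HET list has more and narrower sites than the adult WT list, and their part in these values was not tested.

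Between stages, 18 of the 19 E18.5 sites near a start overlapped a P0 site (94.7%, exact 95% interval 74.0 to 99.9%), against 88.4% of all E18.5 sites near a start. Of the 57 P0 sites 10 overlapped an adult WT site (17.5%, 8.75 to 29.9%), against 10.3%. The all-gene value lies inside each of these intervals. Merged over lists, the sites near a start formed 56 regions held in 1 list, 13 in 2, 8 in 3 and 2 in all 4, the last at Stxbp5 and Syt4. At Stxbp5 the adult WT and HET sites joined the region through the wider E18.5 and P0 sites. Regions were counted for the members only, so these counts have no all-gene share beside them and show nothing particular to the members.

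Promoters of release genes were also compared within classes of CpG content. A promoter was called CpG-rich where the 500 bp on either side of the outermost start had an observed-to-expected CpG ratio of at least 0.6 and a GC fraction of at least 0.5. The 27 CpG-rich members had targets in 25.9% at E18.5 and 51.9% at P0, where all 9740 CpG-rich genes had 50.2% and 71.9%. In the adult the order was the other way, 37.0% against 27.1% in WT and 29.6% against 25.7% in HET. The 21 CpG-poor members had 38.1% at E18.5, 71.4% at P0, 42.9% in WT adults and 33.3% in HET adults, and all 12198 CpG-poor genes 13.9%, 25.2%, 14.4% and 21.6%. Snap25, Syt1, Syt4, Napb, Rab3c and Sv2b were among the CpG-poor members, and Vamp1, Stxbp5, Rab3a, Pclo and Unc13b among the CpG-rich.

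The bodies of release genes held 35 sites at E18.5, 127 at P0, 142 in WT adults and 173 in HET adults. A site in the body was found for 20 members at E18.5 (32.7% of all genes had one), 34 at P0 (48.4%), 28 in WT adults (29.6%) and 31 in HET adults (36.7%). Release genes are long, with a median of 48.2 kb against 17.4 kb, so counts were also given per length: per 100 kb the members had 0.538, 1.95, 2.18 and 2.66 sites, and all genes 0.968, 2.39, 1.45 and 2.20. The members thus lay below all genes at E18.5 and P0 and above them in both adult lists. This order was not that of every length class. Among genes over 100 kb it was the same, with 0.345, 1.54, 2.12 and 2.83 sites per 100 kb in 17 members and 0.597, 1.83, 1.45 and 2.32 in all 2492 genes. The 19 members of 20 to 100 kb had 1.23, 3.69, 2.58 and 1.46, against 1.08, 2.56, 1.36 and 1.99, and so lay above all genes in each WT list and below them in HET. The 12 members under 20 kb had 4.96, 8.93, 1.99 and 3.97, against 3.04, 5.5, 1.77 and 2.11, above all genes in every list. Most of the pooled length is in the long members, and the pooled values follow them.

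A few very long genes carried much of this. Erc2, which encodes an ELKS scaffold and spans 856 kb, had 5 sites in its body at E18.5, 15 at P0, 27 in WT adults and 18 in HET adults. Syt1 (513 kb) had 0, 10, 24 and 20. Rims1 (520 kb), whose product RIM1 links Rab3 to calcium channels, had 0, 2, 9 and 15, although it was a target in no list, and Unc13c (490 kb) had 0, 0, 3 and 13. Pclo (349 kb) had 0, 2, 7 and 14. Rab3c (227 kb) ran otherwise, with 6, 11, 7 and 6, and Slc17a6 had 3, 10, 1 and 2 in 49.1 kb. The 5 members with most sites held 53.5% of the body sites in WT adults and 46.2% in HET adults. Of the 17 members over 100 kb, 16 had more body sites in adult WT than at E18.5 and none had fewer, and against P0 8 had more and 5 fewer. The same count over all genes of that length is not given. Their density was 0.597 sites per 100 kb at E18.5, 1.83 at P0 and 1.45 in adult WT, so it also rose from E18.5 to adult WT. The lists differ in size, and their part in these counts was not tested.

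**Figure D4:**
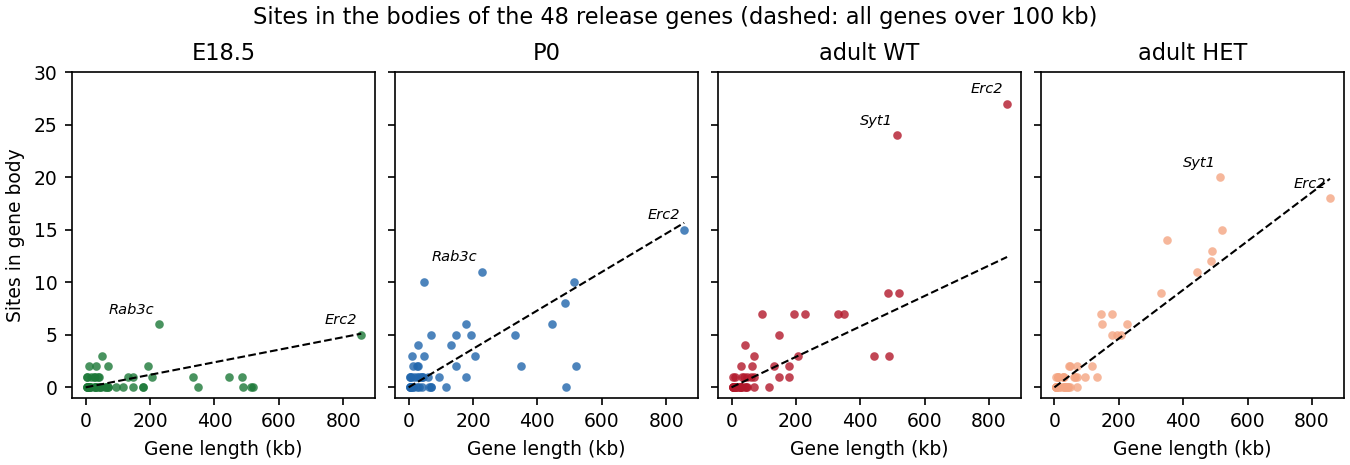
Sites in the gene body of each of the 48 release genes (points) against gene length in kb, by merged list. The dashed line is the density of all protein-coding genes over 100 kb. Syt1 and Erc2 lie well above the line in adult WT, with 24 and 27 sites, and most long members lie below it at E18.5.

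Inside the body of Sv2b, 10557 bp from the nearest start in the HET list, lay the single intronic region with sites in all 4 lists, of 570 bp at E18.5, 654 bp at P0, 127 and 243 bp in WT adults and 67 bp in HET adults, whose letters are given above.

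Matches to AAAGTT on either strand were counted in the 75 bp to each side of a site's midpoint. Near a start, 4 of 19 member sites held it at E18.5, 4 of 57 at P0, 3 of 24 in adult WT and 2 of 20 in adult HET, and the shares over all sites near a start were 10.8%, 12.1%, 10.8% and 12.4%. With sites in gene bodies included, the shares of members were 25.0% (10 of 40, exact 95% interval 12.7 to 41.2%), 12.0% (17 of 142, 7.1 to 18%), 14.7% (22 of 150, 9.43 to 21.4%) and 17.1% (31 of 181, 11.9 to 23.4%), and those of all such sites 13.4%, 13.8%, 13.3% and 14.0%. Each all-gene value lies inside the members' interval. The Stxbp5 site at P0 had all 3 copies within this window, as had 19 of the 15024 P0 sites near a start (0.126%) at 3 or more copies. The window holds 1 copy in the Stxbp5 sites of E18.5 and adult WT, and none in those of adult HET.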

How the data were processed

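MYT1L binding was profiled by CUT&RUN in 24 libraries: for each of 4 groups of mice, 3 with the MYT1L antibody and 3 with control IgG. The authors ran nf-core/cutandrun v1.0 on mm10 and deposited 1 merged list of sites per MYT1L group. The unit of the deposited values is a genome position in bp, with no count, height or score. How reads were aligned, peaks called and thresholded, and IgG used is not given in the sources used here, and the IgG libraries are not analysed here. Titles of some adult libraries name Myt2l or Myt3l, and their descriptions, which name Myt1l, set the group. Labels give cortex at E18.5 and prefrontal cortex otherwise, whereas the study's methods give prefrontal cortex throughout. The methods take cells per animal and split them between both antibodies, but whether the 3 libraries of a group are 3 animals is not stated.

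Genes were the 21938 protein-coding genes of GENCODE M21 (basic transcripts, 21 chromosomes) on GRCm38.p6, the mm10 assembly, which also gave the sequences. A member was a target when at least 1 bp of a site lay within 5000 bp of any of its starts. Site midpoints were placed at promoters (1 kb upstream to 100 bp downstream of a start). Scripts were run under Python 3.11.15, numpy 2.4.6, scipy 1.17.1, pandas 2.3.3 and pysam 0.24.0, after samtools 1.23.1 indexing, and the target search was checked on simulated sites. Shares of sites carry exact (Clopper-Pearson) 95% intervals. These cover counting error only. No test between lists was possible. Full values are given for members that were targets in all 4 lists, for the 3 members with most covered bp near a start in each list and for members that were targets in none, and other members are described within their role. The 48 members, their 6 roles, the 82 of 83 listed genes that matched, and the 6 words searched in sites (AAAGTT for MYT1L and words for NFI, CRE, AP-1, E-box and REST) were chosen with earlier results of these data known. Alternatives were distances of 1 and 10 kb, midpoints, the outermost start, wider sites, other motif windows and other overlaps. The comprehensive annotation, the removal of sites nearer to another gene and a CpG class from every start were added after the data had been seen.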

Additional observations from a re-analysis of the deposited data

How the results depend on the processing

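No test was run, so an alternative could move a value but not a call. No paired analysis was possible because each group has 1 merged list and no value per library, and for the same reason no replicate could be left out. Of 134 alternative values, 93 stayed within 1.5 times the count, or within the 95% interval of the share, given in the report. Of the 41 that moved, 14 were counts of targets within a role at 1 or 10 kb. Member targets moved for adult HET at 1 kb, to 4, and members in all 4 lists moved to 1 at 1 kb (Stxbp5) and to 2 with sites wider than the list median. With the comprehensive annotation or at 10 kb there were 6 in all 4 lists, Rab3a and Vamp2 besides the 4, which lies at the edge of 1.5 times. Of the members given above as targets in no list, the comprehensive annotation made Sv2a a target at E18.5 and in adult WT, and Syt9 in adult HET. Gene-body sites fell to 18 at E18.5, 58 at P0, 77 in WT adults and 81 in HET adults with wider sites only, and to 21 at E18.5 without the 5 kb around starts. AAAGTT shares moved to 50% at E18.5, 24.6% at P0 and 22.0% in adult WT over whole sites, to 45.0%, 36.6%, 36.7% and 39.2% (E18.5, P0, adult WT and adult HET) with 250 bp on each side, to 7.04% at P0 and 8.84% in adult HET with AAAGTTA or AAAGTTT, and to 7.02% and 10% in the same lists near starts only; longer windows hold the word more often by construction. The P0 share at promoters was 61.4% with 1 kb on either side. Overlap of E18.5 with P0 sites became 77.5% when 50% had to be covered and 100% for wider sites, P0 with adult WT 4.93% and 21.2%, and, at 50%, E18.5 with adult WT 7.50% and P0 with adult HET 1.41%; adult WT with HET was 16.7% within 500 bp. These overlap shares were taken over sites near a start or in a gene body together. As an exception, each was judged against its main value over those same sites, which the report does not give. They are therefore not alternatives to the near-start overlaps given above. Among the shares that moved, the stricter cover rule gave lower values than any overlap, and wider sites or the looser distance gave higher ones. For E18.5 with adult WT, wider sites gave a lower share (21.7%) that stayed inside the interval. Without sites nearer to another gene, Prrt2 left the E18.5 and HET targets. No count of CpG-poor targets moved with the CpG class taken from every start. Depth is unknown, and absence from a list does not show that MYT1L was absent there.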

Other observations

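TCAGCACC, the left part of the element bound by the repressor REST, is the longest of the words searched. In the 75 bp to each side of the midpoint it occurred near starts in 3 of the 57 P0 sites of release genes (5.26%, exact 95% interval 1.10 to 14.6%), against 0.712% of all P0 sites near a start (107 of 15024). In the other lists no member site near a start held it in this window, although the Stxbp5 match also lay inside the wider E18.5 site, away from its midpoint. The 3 matches are shown with the word in capitals, in mm10, on the strand of the match.
Rims2 (chr15:39199365-39199414, plus strand): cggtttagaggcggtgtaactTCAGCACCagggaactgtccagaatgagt
Stxbp5 (chr10:9901809-9901858, minus strand): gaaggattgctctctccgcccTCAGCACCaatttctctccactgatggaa
Sypl (chr12:32954940-32954989, minus strand): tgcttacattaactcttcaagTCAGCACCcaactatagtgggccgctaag
Of the 5 matches in member sites, with introns of Slc17a6 (P0) and Unc13b (adult WT) included, none was followed by GGACAG, the right part of the element, within 21 bases.

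The 6 words were each searched in 4 lists, near starts and with gene bodies included, and the intervals are not adjusted for that number. TTGGCA, which nuclear factor I recognises as a half-site, lay in 16.0% of the adult WT sites near or in release genes (24 of 150, exact 95% interval 10.5 to 22.9%), against 9.84% of all such sites. Near starts only, the adult WT share was 12.5% (3 of 24, 2.66 to 32.4%), against 8.18%. With gene bodies, TTGGCA lay in 5% at E18.5 (2 of 40), 10.6% at P0 (15 of 142) and 8.29% in adult HET (15 of 181), against 11.5%, 10.7% and 8.06%. TGACTC, the word searched for AP-1, lay in 3.87% of the HET member sites (7 of 181, 1.57 to 7.81%), against 7.78% of all. In the other lists its share was 15.0% at E18.5 (6 of 40, 5.71 to 29.8%), 8.45% at P0 (12 of 142) and 6.67% in adult WT (10 of 150), against 6.57%, 6.35% and 10.3%, so the order of members and all sites differed between lists. CAGATG, an E-box of neuronal bHLH factors, lay in 15.0%, 12.0%, 16.0% and 14.4% of member sites in the order E18.5, P0, adult WT and adult HET, against 11.6%, 11.5%, 14.8% and 10.9% of all.

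Among the 82 other vesicle and synapse genes, Itsn1 and Napa were targets in all 4 lists. Itsn1, a scaffold of endocytosis, had 2618 bp of sites near its starts at E18.5, 2445 at P0, 796 in WT adults and 252 in HET adults. Napa, the α-SNAP paralogue of Napb, had 782, 296, 437 and 400 bp, so that unlike Napb it had sites near its start in adult HET.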
